A study of Homo sapiens with 21 samples.

Results

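The genes described here are 47 enzymes of the urea cycle and of amino acid catabolism. They were chosen by name in the 6 deposited FPKM tables of a study of human hepatoma cells. FPKM are fragments per kilobase of gene length, scaled by a library size. Of the 47, 46 were listed among 28808 genes and 38 passed the filter of at least 1 FPKM in 3 or more libraries, as did 13405 genes in all. SDS, serine dehydratase, was not among the rows. C3A cells, a derivative of the HepG2 liver tumour line, were left unexposed (6 libraries) or exposed for 48 h, 3 libraries each, to glyphosate at 5.6 µM (0.95 µg/mL), to its breakdown product aminomethylphosphonic acid (AMPA) at 34 µM (3.7 µg/mL), to 2,4-D, a synthetic auxin used against broad-leaved weeds, at 2.5 µM (0.56 µg/mL), to glyphosate with 2,4-D or to AMPA with 2,4-D, at those same concentrations. All groups carried the wild-type genotype of this 1 line, and the labels name no vehicle for the unexposed cells.

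Hepatocytes dispose of amino acid nitrogen through the urea cycle. Ammonia enters as carbamoyl phosphate in the mitochondrion, and the cytosolic steps make argininosuccinate, arginine and urea. Transaminases move amino groups between amino acids and keto acids, and the carbon skeletons go to acetyl-CoA, the citric acid cycle or glucose. Methionine takes its own liver route: MAT1A makes S-adenosylmethionine, GNMT spends it on glycine, AHCY splits the product to homocysteine, and homocysteine is either methylated again by BHMT or passed to cysteine by CBS and CTH.

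The libraries held 15202557 to 24352443 reads, recovered from the FPKM. Nothing in the labels says that the replicates came from separate cultures, so the p-values measure the spread between these libraries. Unexposed replicates 1 to 3 and 4 to 6 stood apart as 2 sets: 24 of the 38 members tested (63.2%) had no overlap between them, 17 with set 4 to 6 above and 7 with it below, against 45.5%, 22.9% and 22.6% of all genes tested. Counts and the main members are therefore given against all 6 unexposed libraries and against each set alone. All 8 hepatocyte markers were present, with albumin at 2250 to 4390 FPKM. Of 9 markers of other cell types PTPRC and DCN were not listed, 6 stayed at or below 0.199 FPKM, and SOX9 was at 27.9 to 41.1 FPKM. The share of FPKM in 79 ribosomal protein genes was 6.73 to 6.91% in set 1 to 3, 7.66 to 7.87% in set 4 to 6 and 8.63 to 9.66% in the exposed libraries. The summed hepatocyte markers were 5590 to 6020, 8080 to 9250 and 9120 to 10700 FPKM in the same order. The part of either shift in the results below was not tested.

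More members fell than rose with each exposure. With glyphosate 19 of the 38 were called lower and 6 higher (limma on log2(FPKM + 1), Benjamini-Hochberg adjusted p under 0.05 over all genes), where 25.1% of all genes were called lower and 27.7% higher. AMPA gave 20 lower and 7 higher, with 24.8% and 28% of all genes. 2,4-D gave 20 lower and 4 higher, with 22.6% and 25%. Glyphosate with 2,4-D gave 19 and 6, with 22.7% and 25.4%, and AMPA with 2,4-D gave 19 and 6, with 24.4% and 26%. The median log2 difference of the members lay between -0.216 and -0.155, while that of all genes lay between 0.000501 and 0.0137. These 5 comparisons share the same unexposed libraries, so their likeness is no separate evidence. Scaling every library to the same total of length-adjusted values (TPM) moved the median of all genes to between -0.139 and -0.0781. That of the members moved to between -0.386 and -0.289. On that scale 22 to 27 members were lower and 3 or 4 higher, and the shares of all genes called were not counted. Of members called in no exposure on the FPKM scale, TPM called OAT and GLUD1 lower in 3 exposures. It called FAH lower in 2, and MAT2A and CPS1 lower in 1 each.

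Against set 1 to 3 alone, the members called lower and higher numbered 19 and 8 with glyphosate (27.2% and 29.4% of all genes), 20 and 9 with AMPA (27.5% and 30%) and 17 and 8 with 2,4-D (25.9% and 27.6%). For glyphosate with 2,4-D they were 14 and 10 (26.1% and 27.9%) and for AMPA with 2,4-D 16 and 9 (26.1% and 28.1%). Against set 4 to 6 alone they were 26 and 5 with glyphosate (23.6% and 27%), 24 and 7 with AMPA (23.3% and 27.3%) and 22 and 6 with 2,4-D (21.3% and 24.6%). The mixtures gave 24 and 8 (21.3% and 24.7%) with glyphosate and 25 and 6 (23.4% and 25.9%) with AMPA. With the 2 sets, the count of lower members was thus greatest against set 4 to 6 in each exposure, and lower members outnumbered higher ones in all 10 comparisons.

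Called lower in all 5 exposures were 16 members: ASS1, ASL, NAGS, GPT, HPD, GSTZ1, MAT1A, GNMT, CTH, SARDH, DMGDH, SHMT2, AASS, BCKDHB, PRODH2 and PCK2 (42.1%, against 15.4% of all genes). Of these, 12 were also called lower in all 5 against each unexposed set (31.6%, against 10.3% of all genes). The same 12 had all 15 exposed libraries below all 6 unexposed ones (11.6% of all genes). HPD, SHMT2, AASS and PRODH2 are the 4 of the 16 without that. Called higher in all 5 were GOT1, HGD, BHMT and PCK1 (18.2% of all genes), of which GOT1 and HGD held against each set (13.3% of all genes). GOT1, HGD and PCK1 had all 15 exposed libraries above all 6 unexposed ones (13.8% of all genes).

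**Figure D1:**
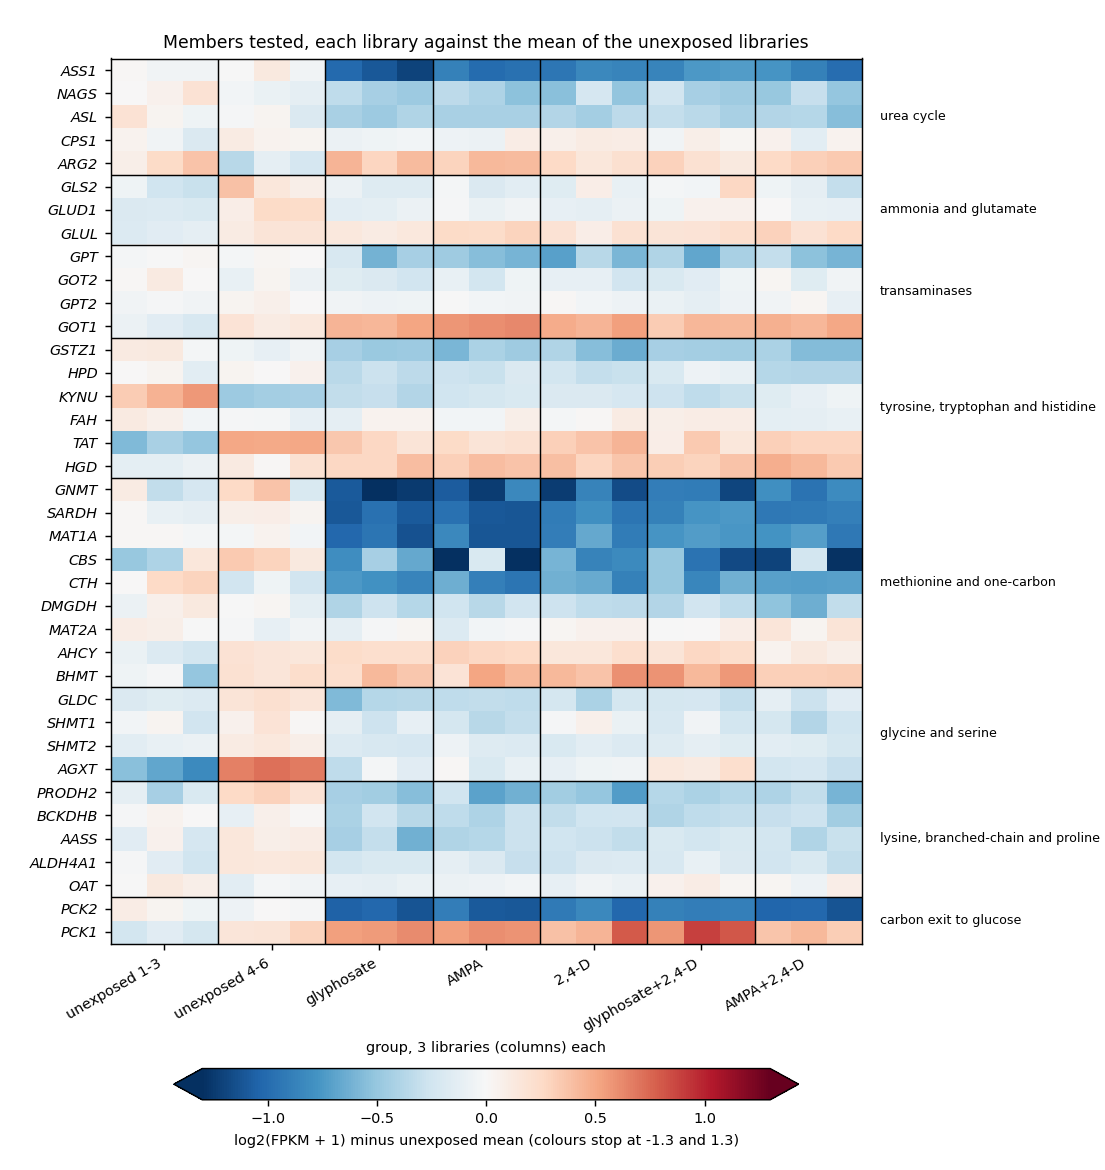
Log2(FPKM + 1) of the 38 members tested (rows, by role) in each of the 21 libraries (columns, 3 per group), minus the mean of the 6 unexposed libraries of that gene; colours stop at -1.3 and 1.3. ASS1, MAT1A, GNMT, SARDH, CTH and PCK2 are blue in all 15 exposed libraries, while AGXT, TAT and KYNU differ mainly between the unexposed sets.

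Among the urea cycle enzymes, ASS1, ASL and NAGS fell with every exposure and, on the FPKM scale, CPS1 did not pass the test in any. ASS1, argininosuccinate synthase, joins citrulline and aspartate. Its FPKM was 56.0, 57.0 and 63.4 (lowest, median and highest) in the 6 unexposed libraries. It read 28.3, 26.5 and 24.6 with glyphosate, 31.2, 28.5 and 29 with AMPA and 29.8, 32.1 and 31.6 with 2,4-D. In the mixtures it read 31.6, 34.3 and 34.5 with glyphosate and 2,4-D, and 33.7, 31.1 and 28.8 with AMPA and 2,4-D. Every exposed library was thus below every unexposed one, and the exposed mean was 52.3% of the unexposed mean. The log2 differences of FPKM + 1 were -1.10, -0.95, -0.88, -0.78 and -0.88 in that order (SE 0.05, limma adjusted p 8.5e-11 to 6.46e-09). The gene lies at chr9:130444929-130501274 on the plus strand (GRCh38, as in the tables).

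ASL, argininosuccinate lyase, which releases arginine (chr7:66075798-66093558, plus strand), was at 15.3 to 20.1 FPKM in the unexposed libraries and 11.7 to 13.9 in the exposed ones. Its log2 differences ran from -0.44 to -0.36 (SE 0.06). An annotated gene on the same strand shares 17.6% of its exonic bases, so part of its reads may belong there. NAGS makes the N-acetylglutamate that switches on carbamoyl phosphate synthesis (chr17:44004546-44009063, plus strand). It was at 11.1 to 14.0 FPKM unexposed and 8.05 to 10.3 exposed, with log2 differences from -0.43 to -0.38 (SE 0.08). CPS1, the carbamoyl phosphate synthase that NAGS serves, read 2.30 to 3.04 unexposed and 2.40 to 3.03 exposed. The CPS1 log2 differences lay between -0.06 and 0.09 (SE 0.06), and its groups overlapped.

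OTC, the mitochondrial step that makes citrulline, had 0 to 2 reads in a library, and the cytosolic arginase ARG1 had 0 to 9. Neither was tested, and OTC was not a row of the glyphosate table. ARG2, the mitochondrial arginase (chr14:67619798-67651720, plus strand), was at 52.1 to 64.1 FPKM in set 1 to 3, 38.1 to 45.5 in set 4 to 6 and 53.9 to 67.5 exposed. It was called higher with glyphosate (log2 0.38), AMPA (0.38) and AMPA with 2,4-D (0.30), but in no exposure against set 1 to 3, where its differences were -0.02 to 0.15. No ARG2 call held on the TPM scale (adjusted p 0.0649 to 0.205). The call for AMPA with 2,4-D was lost without unexposed replicate 4, 5 or 6 or any library of its own group (adjusted p 0.0581 to 0.0993). Exons of VTI1B on the other strand cover 37.4% of ARG2, and whether the counting used strand is not given in the sources used here.

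The 3 ammonia and glutamate enzymes showed no member called lower or higher in all 5. GLUL, glutamine synthetase, was at 32.4 to 33.7 FPKM in set 1 to 3, 39.6 to 41.4 in set 4 to 6 and 39.1 to 45.2 exposed. It was called higher with AMPA (log2 0.26), glyphosate with 2,4-D (0.19) and AMPA with 2,4-D (0.25). The call for glyphosate with 2,4-D was lost without any 1 of unexposed replicates 1 to 3 or of its own libraries (adjusted p 0.0621 to 0.0998), and no GLUL call held on the TPM scale. Against set 1 to 3 GLUL was called higher in all 5 exposures and against set 4 to 6 in 2. GLUD1, glutamate dehydrogenase, was at 73.7 to 74.9, 89.9 to 101 and 77.0 to 88.4 FPKM in the same order, so all exposed libraries lay between the sets. GLS2, the liver glutaminase, was at 3.30 to 4.05 in set 1 to 3 and 4.55 to 5.84 in set 4 to 6, and its exposed libraries reached from 3.24 to 5.34. GLUD1 may share reads with its near-identical copy GLUD2, and 77.1% of GLS2 is covered by SPRYD4 exons on the other strand.

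Of the transaminases, cytosolic GOT1 rose and cytosolic GPT fell. GOT1 passes the amino group of aspartate to a keto acid in the cytosol (chr10:99396870-99431569, minus strand). It read 92.5, 108 and 121 FPKM (lowest, median and highest) unexposed. It stood at 145, 144 and 153 with glyphosate, 160, 163 and 166 with AMPA, 149, 145 and 155 with 2,4-D, 134, 144 and 144 with glyphosate and 2,4-D, and 147, 144 and 152 with AMPA and 2,4-D. No exposed library overlapped an unexposed one. Its log2 differences were 0.46, 0.60, 0.49, 0.39 and 0.46 (SE 0.07, adjusted p 1e-06 to 0.000132), and 0.25 to 0.46 against set 4 to 6 alone. An antisense gene covers 19.3% of its exonic bases.

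GPT, the cytosolic alanine transaminase, read 3.57, 3.66 and 3.75 FPKM (lowest, median and highest) unexposed. It was at 3.02, 2.04 and 2.45 with glyphosate, 2.38, 2.18 and 2.06 with AMPA, 1.86, 2.64 and 2.08 with 2,4-D, 2.57, 1.91 and 2.47 with glyphosate and 2,4-D, and 2.76, 2.22 and 2.07 with AMPA and 2,4-D. All 15 exposed libraries were below the unexposed ones, with log2 differences of -0.42, -0.54, -0.55, -0.50 and -0.48 (SE 0.09). GOT2, the mitochondrial partner of GOT1, was called lower with glyphosate (-0.20) and 2,4-D (-0.15), the latter lost without unexposed replicate 2 or 2,4-D replicate 3 (adjusted p 0.0564 and 0.182). GPT2, the mitochondrial partner of GPT, was called lower with glyphosate and 2,4-D only (-0.09), a call lost without unexposed replicate 4 or 5 or replicate 1 or 2 of that mixture (adjusted p 0.0535 to 0.131). Against set 1 to 3 GOT2 was called lower in 4 exposures and GPT2 in 0, and against set 4 to 6 in 1 and 2. On the TPM scale both were called lower in all 5 exposures, GOT2 by log2 differences of -0.31 to -0.18 and GPT2 by -0.22 to -0.13.

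Of 9 methionine and one-carbon enzymes tested, 5 (MAT1A, GNMT, SARDH, DMGDH and CTH) were lower in all 5 exposures against all unexposed libraries and against each set. Of all genes, 10.3% were. MAT1A, the liver form of methionine adenosyltransferase (chr10:80271820-80289684, minus strand), was at 43.0, 44.0 and 45.6 FPKM (lowest, median and highest) unexposed. It read 21.3, 22.4 and 19.6 with glyphosate, 24.2, 19.9 and 19.9 with AMPA, 23.2, 27.5 and 23.0 with 2,4-D, 25.6, 26.4 and 25.7 with glyphosate and 2,4-D, and 25.3, 26.5 and 22.6 with AMPA and 2,4-D. The unexposed sets overlapped for this gene and the exposed libraries stayed well below both. Its log2 differences were -1.03, -1.02, -0.82, -0.75 and -0.81 (SE 0.07, adjusted p 1.01e-09 to 7.85e-08). MAT2A, the form found in most other tissues, was at 35.0 to 40.4 FPKM unexposed and 33.2 to 42.5 exposed and was called in no exposure against all unexposed libraries on the FPKM scale.

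GNMT, glycine N-methyltransferase (chr6:42960758-42963880, plus strand), read 2.10, 2.77 and 3.99 FPKM (lowest, median and highest) unexposed. It read 0.816, 0.464 and 0.629 with glyphosate, 0.825, 0.640 and 1.16 with AMPA, 0.637, 1.11 and 0.721 with 2,4-D, 1.07, 1.06 and 0.692 with glyphosate and 2,4-D, and 1.22, 0.981 and 1.19 with AMPA and 2,4-D. These were 10 to 87 reads a library, the fewest among the 12, and still no exposed value reached an unexposed one. Its exposed mean was 30.1% of the unexposed mean, and the log2 differences of FPKM + 1 were -1.24, -1.05, -1.09, -1.0 and -0.86 (SE 0.15), a scale that understates the change of so low a gene.

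SARDH and DMGDH oxidise sarcosine, the product of GNMT, and dimethylglycine, the product of BHMT, in the mitochondrion. SARDH (chr9:133663560-133739955, minus strand) read 7.14, 7.98 and 8.36 FPKM (lowest, median and highest) unexposed. It stood at 3.10, 3.5 and 3.14 with glyphosate, 3.5, 3.10 and 3.09 with AMPA, 3.69, 4.07 and 3.58 with 2,4-D, 3.81, 4.20 and 4.26 with glyphosate and 2,4-D, and 3.64, 3.67 and 3.77 with AMPA and 2,4-D. Its exposed mean was 46.1% of the unexposed mean, with log2 differences from -1.06 to -0.80 (SE 0.05). DMGDH was at 1.34 to 1.79 FPKM unexposed and 0.650 to 1.15 exposed, with log2 differences from -0.49 to -0.29 (SE 0.07).

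BHMT, which uses betaine to methylate homocysteine, moved the other way from DMGDH, although the gene (chr5:79111779-79132290, plus strand) lies inside the bounds of DMGDH (chr5:78997606-79236038, minus strand) and shares 6.8% of its exonic bases with it. BHMT read 1.27, 1.34 and 0.674 FPKM in unexposed replicates 1 to 3 and 1.71, 1.63 and 1.77 in replicates 4 to 6. It read 1.75, 2.17 and 2.01 with glyphosate, 1.67, 2.39 and 2.18 with AMPA, 2.17, 2.07 and 2.56 with 2,4-D, 2.55, 2.18 and 2.49 with glyphosate and 2,4-D, and 1.94, 1.94 and 1.95 with AMPA and 2,4-D. Only the values of 1.67 and 1.75 fell inside the unexposed range. Its log2 differences were 0.33, 0.37, 0.46, 0.52 and 0.31 (SE 0.12), but against set 4 to 6 it was called with 2,4-D and with glyphosate and 2,4-D only. On the TPM scale its calls for glyphosate, AMPA and AMPA with 2,4-D were lost (limma adjusted p 0.0741 to 0.101). The calls also fell on leaving out single libraries: for glyphosate without unexposed replicate 1 or glyphosate replicate 2 or 3, for AMPA without AMPA replicate 2 or 3, and for AMPA with 2,4-D without unexposed replicate 1 or 2 or any library of its own group (adjusted p 0.0511 to 0.119).

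CTH, cystathionine gamma-lyase, makes cysteine (chr1:70411218-70439851, plus strand). It read 9.39, 11.3 and 11.7 FPKM in unexposed replicates 1 to 3 and 7.68, 8.96 and 7.73 in replicates 4 to 6. The exposed values were 5.16, 4.98 and 4.70 with glyphosate, 5.65, 4.59 and 4.37 with AMPA, 5.73, 5.57 and 4.64 with 2,4-D, 6.34, 4.75 and 5.73 with glyphosate and 2,4-D, and 5.34, 5.28 and 5.33 with AMPA and 2,4-D. All 15 were below both sets, with log2 differences of -0.80, -0.82, -0.72, -0.65 and -0.71 (SE 0.11), or -0.64 to -0.47 against set 4 to 6. AHCY, which splits S-adenosylhomocysteine, was at 102 to 114 FPKM in set 1 to 3, 134 to 138 in set 4 to 6 and 124 to 149 exposed. Against all 6 it was called higher in 3 exposures, with glyphosate lost without any 1 glyphosate library and glyphosate with 2,4-D lost without its replicate 2 or 3 (adjusted p 0.0512 to 0.0864). All 3 of those AHCY calls were lost on the TPM scale (log2 0.09 to 0.12, adjusted p 0.154 to 0.285). It was called higher in all 5 against set 1 to 3 and, against set 4 to 6, higher in 1 exposure and lower in 1.

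CBS, the step before CTH, gave values that spread widely within groups. Its FPKM was 4.36, 4.73 and 7.38 in unexposed replicates 1 to 3 and 8.61, 8.23 and 7.25 in replicates 4 to 6. It read 3.33, 4.60 and 3.77 with glyphosate, 1.95, 5.59 and 1.91 with AMPA, 3.99, 3.16 and 3.27 with 2,4-D, 4.38, 2.90 and 2.35 with glyphosate and 2,4-D, and 2.27, 5.41 and 2.10 with AMPA and 2,4-D. In both groups with AMPA, replicate 2 stood above the other two. The log2 differences were -0.64, -0.98, -0.76, -0.88 and -0.91 (SE 0.27), called in all but glyphosate, and no exposure was called against set 1 to 3. Against set 4 to 6 all 5 were called lower (-1.23 to -0.89), as they were on the TPM scale. The calls against all 6 were lost for 2,4-D without unexposed replicate 4 or 2,4-D replicate 2 or 3, for glyphosate with 2,4-D without its replicate 3, and for AMPA with 2,4-D without its replicate 1 or 3 (adjusted p 0.0503 to 0.0849). A near-identical gene, CBSL, took 31.2% of the reads of the pair in unexposed replicate 1 and 30.1% in glyphosate replicate 1 but 0.896% in AMPA replicate 2, so the split of reads is uncertain. Summed over both copies, the CPM recovered was 34.9 to 61.9 unexposed and 12.7 to 37.6 exposed.

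**Figure D2:**
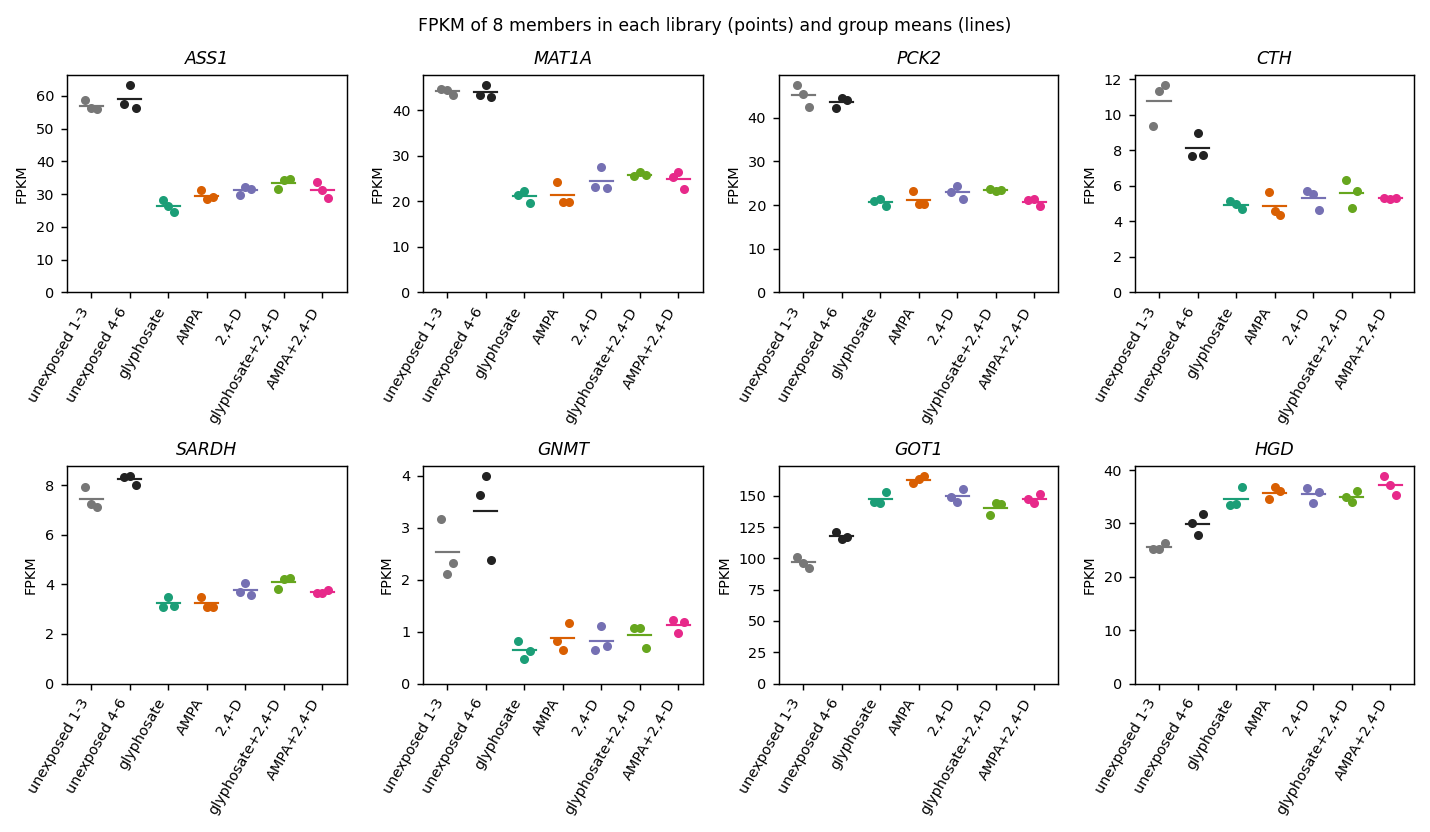
FPKM (vertical axes, from 0) of 8 members in each of the 21 libraries (points) with the mean of each group of 3 (lines); the unexposed libraries are drawn as sets 1-3 and 4-6. The 15 exposed libraries lie below all unexposed ones in the first 6 panels (for ASS1 24.6 to 34.5 against 56.0 to 63.4) and above them for GOT1 and HGD.

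Tyrosine breakdown changed unevenly along its chain. TAT, which starts it, and FAH, which ends it, were called in no exposure against all unexposed libraries on the FPKM scale. HPD makes homogentisate (chr12:121839527-121863596, minus strand). It was at 183 to 209 FPKM unexposed and 154 to 191 exposed, with log2 differences of -0.32, -0.25, -0.28, -0.12 and -0.38 (SE 0.04). Leaving out replicate 1 of the mixture with glyphosate ended the call there (adjusted p 0.145), which was also not made against set 1 to 3.

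HGD opens the ring of homogentisate (chr3:120628173-120682571, minus strand). It rose from 25.3 to 31.8 FPKM unexposed to 33.5 to 38.9 exposed, without overlap, with log2 differences of 0.31, 0.36, 0.35, 0.33 and 0.41 (SE 0.06). GSTZ1, the isomerase that follows HGD (chr14:77320884-77331597, plus strand), read 2.61, 2.79 and 3.23 FPKM (lowest, median and highest) unexposed. It read 1.88, 1.78 and 1.81 with glyphosate, 1.58, 1.93 and 1.83 with AMPA, 1.97, 1.65 and 1.48 with 2,4-D, 1.89, 1.86 and 1.85 with glyphosate and 2,4-D, and 1.94, 1.63 and 1.64 with AMPA and 2,4-D. All exposed libraries were below all unexposed ones, with log2 differences of -0.46, -0.49, -0.53, -0.44 and -0.51 (SE 0.07). Adjacent steps of the chain, HGD and GSTZ1, were thus called in opposite directions in each exposure.

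TAT, KYNU and AGXT differed more between the unexposed sets than between exposed and unexposed cells. AGXT, the peroxisomal alanine-glyoxylate transaminase (chr2:240868479-240880502, plus strand), read 5.46, 4.91 and 4.32 FPKM in replicates 1 to 3 and 13.8, 14.5 and 14.1 in replicates 4 to 6, and 6.49 to 9.96 in the exposed libraries. The fold of set 4 to 6 over set 1 to 3, on FPKM, was 2.89. All 5 exposures were called higher against set 1 to 3 (log2 0.43 to 0.84), lower against set 4 to 6 (-0.93 to -0.53) and not called against all 6. TAT, tyrosine aminotransferase, a classic glucocorticoid-induced gene of liver, read 6.09, 6.93 and 6.49 in replicates 1 to 3, 14.0, 13.9 and 14.1 in replicates 4 to 6 and 10.2 to 13.4 exposed. KYNU, kynureninase of the tryptophan pathway, ran the other way at 8.03, 8.86 and 9.61, then 4.20, 4.30 and 4.32, and 4.53 to 5.92 exposed. All 3 had every exposed library between the sets. Opposite calls against the sets, in the same or different exposures, were made for 9 members: GLUD1, GLS2, TAT, FAH, KYNU, MAT2A, AHCY, AGXT and OAT. The share of all genes with such opposite calls was not counted. AHCY with AMPA was called higher against all 6 (log2 0.28) and against each set.

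**Figure D3:**
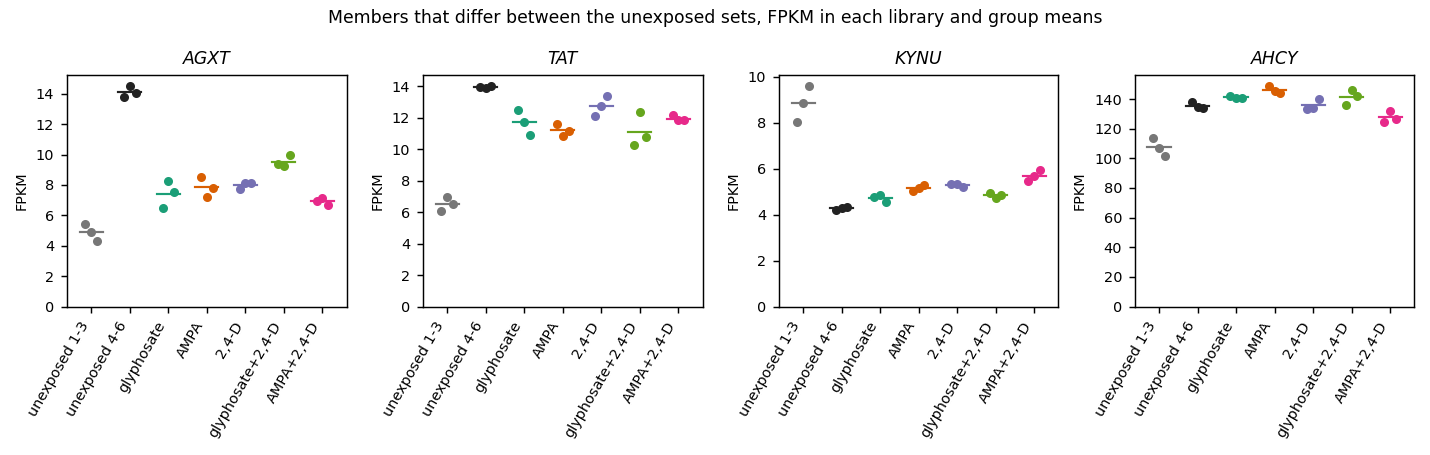
FPKM (vertical axes, from 0) of AGXT, TAT, KYNU and AHCY in each of the 21 libraries (points) with group means (lines). For AGXT, TAT and KYNU the exposed libraries lie between the unexposed sets, so the sign of the difference turns with the set used.

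**Figure D4:**
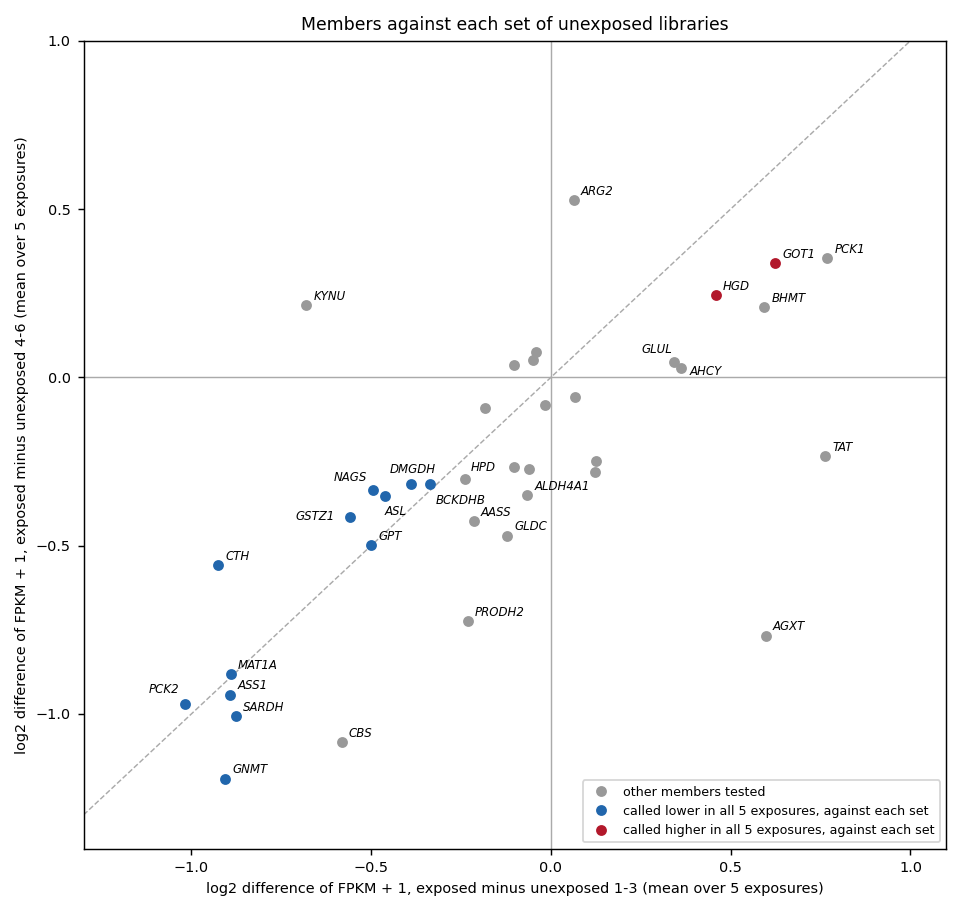
Log2 difference of FPKM + 1 of the 38 members tested, averaged over the 5 exposures, against unexposed set 1-3 (horizontal) and set 4-6 (vertical), with the line of equality dashed. The 12 members called lower in every exposure against each set lie at lower left and the 2 called higher at upper right, while AGXT, TAT and KYNU lie in the quadrants of opposite sign.

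Of the 4 glycine and serine enzymes tested, SHMT2 was called lower in all 5 exposures and none held against each set. SHMT2, the mitochondrial serine hydroxymethyltransferase, was at 147 to 153 FPKM in set 1 to 3, 171 to 178 in set 4 to 6 and 138 to 154 exposed, with log2 differences from -0.20 to -0.14 (SE 0.05). Against set 1 to 3 it was called in 1 exposure. Leaving out 1 library ended its call for AMPA (unexposed 4, 5 or 6, AMPA 2 or 3), 2,4-D (replicate 1), glyphosate with 2,4-D (unexposed 4, 5 or 6, or any of its own) and AMPA with 2,4-D (replicate 3), with adjusted p from 0.0544 to 0.138. GLDC, of the glycine cleavage system, was called lower in 4 exposures (log2 -0.43 to -0.25), all but AMPA with 2,4-D. Against set 1 to 3 the GLDC call was made with glyphosate alone (log2 -0.26), and against set 4 to 6 in all 5 exposures (-0.61 to -0.36). Its 2,4-D call was lost without 2,4-D replicate 2, and that with glyphosate and 2,4-D without unexposed replicate 4, 5 or 6 or any of its own libraries (adjusted p 0.0529 to 0.104). SHMT1, at 0.948 to 1.86 FPKM in all groups, was called lower with AMPA and with AMPA and 2,4-D, in 1 exposure against set 1 to 3 and in 4 against set 4 to 6.

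Of the lysine, branched-chain and proline enzymes, BCKDHB held against each set. BCKDHB is a subunit of the branched-chain keto acid dehydrogenase (chr6:80106647-80346270, plus strand). It was at 4.32 to 5.02 FPKM unexposed and 3.19 to 3.85 exposed, with log2 differences from -0.34 to -0.27 (SE 0.05). PRODH2, a hydroxyproline dehydrogenase, read 11.2, 8.82 and 10.6 FPKM in unexposed replicates 1 to 3 and 14.8, 15.3 and 14.1 in replicates 4 to 6. It read 8.80, 8.65 and 8.03 with glyphosate, 10.0, 7.18 and 7.60 with AMPA, 8.69, 8.32 and 7.02 with 2,4-D, 9.26, 8.98 and 9.24 with glyphosate and 2,4-D, and 9.04, 9.58 and 7.71 with AMPA and 2,4-D. The exposed libraries overlapped set 1 to 3 and lay below set 4 to 6, and the log2 differences were -0.48, -0.53, -0.56, -0.38 and -0.44 (SE 0.13).

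PRODH2 calls were lost for glyphosate with 2,4-D without unexposed replicate 4 or 5 or any of its own libraries, and for AMPA with 2,4-D without its replicate 3 (adjusted p 0.0506 to 0.0761). AASS, which starts lysine breakdown, was at 3.47 to 4.77 FPKM unexposed and 2.38 to 3.55 exposed, with log2 differences from -0.45 to -0.21 (SE 0.08). Leaving out unexposed replicate 2, 4, 5 or 6 or any library of the mixture with glyphosate ended its call there (adjusted p 0.051 to 0.0917). AASS was called lower in 3 exposures against set 1 to 3 and in 5 against set 4 to 6. ALDH4A1 of the proline route was called lower in 4 exposures (-0.25 to -0.20), and in none against set 1 to 3. Each call was lost on leaving out 1 library: any of its own for glyphosate, unexposed replicate 4, 5 or 6 or AMPA replicate 2 or 3 for AMPA, unexposed replicate 4, 5 or 6 or 2,4-D replicate 1 or 2 for 2,4-D, and replicate 3 for AMPA with 2,4-D (adjusted p 0.0511 to 0.165). A same-strand gene covers 41.1% of ALDH4A1. OAT, ornithine aminotransferase, was at 24.8 to 30 FPKM unexposed and 25.2 to 29.3 exposed and was not called against all 6. It was called lower in 3 exposures against set 1 to 3, higher in 1 against set 4 to 6 and lower in 3 on the TPM scale.

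The PCK enzymes, which turn oxaloacetate to phosphoenolpyruvate and so carry amino acid carbon toward glucose, moved apart. PCK2, the mitochondrial form (chr14:24094053-24110598, plus strand), read 42.2, 44.3 and 47.5 FPKM (lowest, median and highest) unexposed. It read 20.9, 21.4 and 19.9 with glyphosate, 23.2, 20.4 and 20.2 with AMPA, 23.0, 24.4 and 21.3 with 2,4-D, 23.6, 23.3 and 23.4 with glyphosate and 2,4-D, and 21.1, 21.3 and 19.8 with AMPA and 2,4-D. The exposed mean was 49.1% of the unexposed mean, with no overlap and log2 differences of -1.06, -1.03, -0.93, -0.89 and -1.06 (SE 0.05, adjusted p 5.27e-11 to 4.33e-10).

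PCK1, the cytosolic form (chr20:57561080-57568112, plus strand), had the lowest unexposed mean of the members tested, at 0.569, 0.668 and 0.575 FPKM in unexposed replicates 1 to 3 and 1.07, 1.08 and 1.26 in replicates 4 to 6. It read 1.68, 1.71 and 1.83 with glyphosate, 1.68, 1.82 and 1.77 with AMPA, 1.40, 1.52 and 2.21 with 2,4-D, 1.76, 2.42 and 2.24 with glyphosate and 2,4-D, and 1.38, 1.48 and 1.32 with AMPA and 2,4-D. All exposed values exceeded all unexposed ones, and the log2 differences of FPKM + 1 were 0.57, 0.57, 0.54, 0.76 and 0.37 (SE 0.12). Against set 4 to 6 alone AMPA with 2,4-D was not called (log2 0.16, adjusted p 0.184), and its call against all 6 was lost without replicate 2 of that mixture (adjusted p 0.051).

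Ratios of FPKM between isozymes put these shifts on 1 scale within each library, and are given as descriptions with no test. MAT1A over MAT2A was 1.11 to 1.15 in set 1 to 3, 1.17 to 1.3 in set 4 to 6 and 0.51 to 0.729 in the 15 exposed libraries. GOT1 over GOT2 was 2.85 to 3.21, 3.61 to 4.18 and 4.66 to 6.21 in the same order. PCK2 over PCK1 was 68.2 to 83.5, 34.8 to 41.3 and 9.64 to 16.4. GPT2 over GPT was 10.9 to 11.3, 11.4 to 12 and 13.4 to 22.8. For each of these 4 pairs the exposed libraries lay outside the range of both unexposed sets, whereas SHMT2 over SHMT1 overlapped (94.7 to 136 in set 1 to 3, 90.1 to 153 exposed). By place in the cell, 8 of 17 mitochondrial and 8 of 20 cytosolic members tested were lower in all 5 exposures, and the 4 that were higher in all 5 were cytosolic, against 15.4% and 18.2% of all genes.

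**Figure D5:**
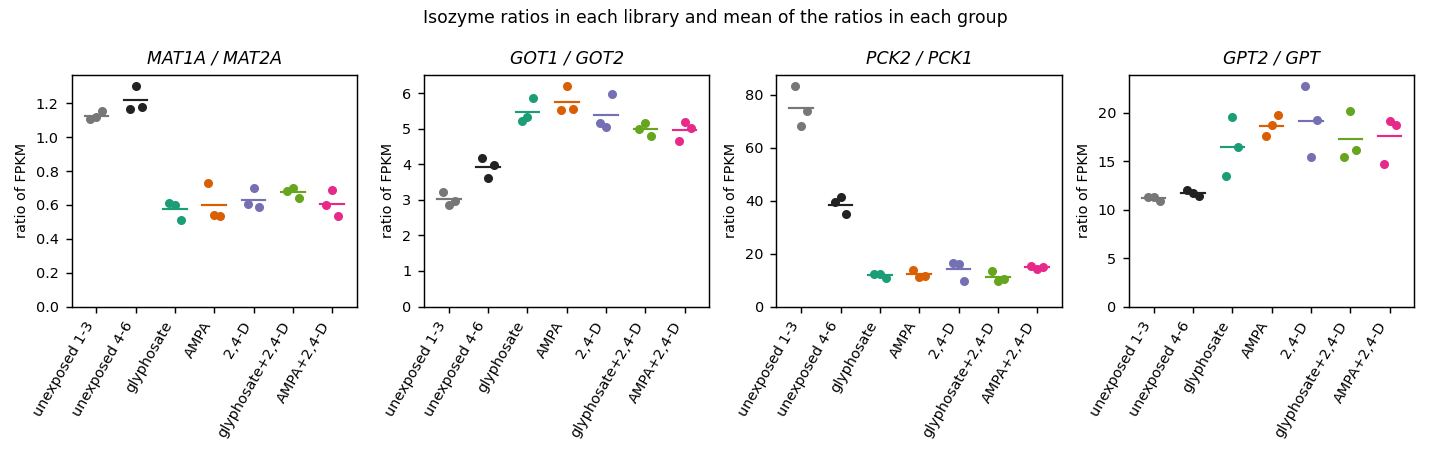
Ratio of FPKM between isozymes (vertical axes, from 0) in each of the 21 libraries (points), with the mean of the ratios in each group (lines). MAT1A over MAT2A lies between 0.51 and 0.729 in the exposed libraries and between 1.11 and 1.3 in the unexposed ones, and PCK2 over PCK1 is lower in all exposed libraries than in either unexposed set.

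Promoter windows are shown for ASS1, MAT1A, PCK2 and GNMT, which fell together in all exposed libraries, and for GOT1, which rose; these 5 were chosen after their values were seen, and SARDH, which also fell deeply, is not shown. Windows of 300 bases (250 before to 50 after a RefSeq start, GRCh38.p14) were found for 39 of the 47 members, 51 windows in all. The motifs searched, on both strands, were the core of the amino acid response element (TGATGNAAN), a C/EBP site (TTGCNNAA), an HNF4 site (CAAAGTCCA), the CCAAT box (CCAAT) and an E-box (CACGTG); matches may overlap. Below are the 250 bases before the RefSeq start, 5′ to 3′ on the gene's strand, with motif matches in capitals. That start differs from the gene bounds given above. By those bounds the bases shown for PCK2 and GOT1 lie wholly inside the gene, and those for ASS1 and MAT1A partly. ASS1 is at chr9:130444711-130444960 (plus), MAT1A at chr10:80289659-80289908 (minus), PCK2 at chr14:24094061-24094310 (plus), GNMT at chr6:42960504-42960753 (plus) and GOT1 at chr10:99430625-99430874 (minus).
ASS1: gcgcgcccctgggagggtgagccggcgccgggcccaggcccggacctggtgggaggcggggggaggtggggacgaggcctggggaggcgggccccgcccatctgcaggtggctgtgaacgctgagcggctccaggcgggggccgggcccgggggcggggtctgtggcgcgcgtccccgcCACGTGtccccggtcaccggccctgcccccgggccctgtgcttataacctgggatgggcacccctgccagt
MAT1A: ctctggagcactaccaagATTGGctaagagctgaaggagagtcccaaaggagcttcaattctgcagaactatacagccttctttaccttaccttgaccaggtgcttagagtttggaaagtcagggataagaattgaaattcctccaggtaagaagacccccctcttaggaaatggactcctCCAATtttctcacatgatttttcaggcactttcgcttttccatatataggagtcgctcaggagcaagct
PCK2: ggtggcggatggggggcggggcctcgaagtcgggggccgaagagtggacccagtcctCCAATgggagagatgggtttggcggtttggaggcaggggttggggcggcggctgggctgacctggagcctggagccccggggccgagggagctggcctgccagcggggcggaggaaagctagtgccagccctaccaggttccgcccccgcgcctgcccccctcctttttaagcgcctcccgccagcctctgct
GNMT: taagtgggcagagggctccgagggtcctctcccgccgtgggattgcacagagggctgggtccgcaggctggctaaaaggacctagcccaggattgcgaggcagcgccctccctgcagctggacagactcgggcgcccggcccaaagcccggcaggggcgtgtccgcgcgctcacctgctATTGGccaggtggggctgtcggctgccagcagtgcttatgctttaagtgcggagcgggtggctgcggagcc
GOT1: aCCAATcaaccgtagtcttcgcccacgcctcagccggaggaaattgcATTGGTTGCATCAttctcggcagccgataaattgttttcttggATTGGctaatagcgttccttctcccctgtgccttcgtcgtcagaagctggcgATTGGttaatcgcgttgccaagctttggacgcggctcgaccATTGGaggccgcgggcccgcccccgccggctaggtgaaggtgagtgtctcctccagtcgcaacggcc
The ASS1 window shown held 1 E-box, 71 bases before the start; the other ASS1 window of the table, with bases before its start at chr9:130444457-130444706, held no match to the 5 motifs in those bases. MAT1A held 2 CCAAT boxes, PCK2 and GNMT 1 each, and GOT1 5, one of them overlapping its amino acid response element core 199 bases before the start. Among the 51 windows of members, 23 (45.1%) held a CCAAT box, against 34.6% of 35116 windows of all genes. An E-box was in 3 (5.88%, against 7.26%), a C/EBP site in 6 (11.8%, against 10.5%), the response element core in 1 (1.96%, against 3.61%) and the HNF4 site in 0 (against 0.384%). These are letter matches only.

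The 2 mixtures were compared with their single compounds at equal concentrations, over 4 pairs with p-values adjusted over all genes within each. No member was called in any of the 4 pairs (limma), where 0% of all genes were called for glyphosate with 2,4-D against either component, 2.71% for AMPA with 2,4-D against AMPA and 0% against 2,4-D. At an unadjusted p under 0.05 there were 7, 2, 7 and 3 members in that order, and voom on recovered reads called 0, 0, 1 and 0. By unadjusted p the first was ASS1, higher in the mixture with glyphosate than with glyphosate alone by a log2 difference of 0.33 (SE 0.06, adjusted p 0.117). The lowest adjusted p was that of MAT2A, higher with AMPA and 2,4-D than with AMPA by a log2 difference of 0.20 (SE 0.06, adjusted p 0.0723). The median 95% interval of a member, before any adjustment over all genes, reached 0.181 to either side. ASS1 at 0.33 was not called either, so differences of either size would not have been seen reliably. These pairs hold no unexposed library, but their SE comes from the spread over all 21 libraries. The gap between the unexposed sets therefore enters it, as for AGXT, with an SE of 0.33 in each pair. For such members the lack of a call says less.

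Against additivity on the log2 scale, 20 members were called for glyphosate with 2,4-D (33.6% of all genes) and 20 for AMPA with 2,4-D (36.7%). In the first, 18 of the 20 were positive and 2 negative, and in the second 15 and 5. Against set 4 to 6 alone the counts were 25 and 25, and against set 1 to 3 alone 27 and 25. The shares of all genes called against each set alone were not counted for these interactions. Each value holds the difference of both components and of the mixture from the same unexposed libraries, so a shift shared by all exposed libraries enters it with the sign turned. It is therefore no separate evidence beside the pairs above, in which no member was called. For ASS1 the mixture's difference from unexposed lay 1.2 above the sum of the 2 single differences for glyphosate (SE 0.08) and 0.95 above it for AMPA. For MAT1A the values were 1.11 and 1.03 (SE 0.10), for PCK2 1.1 and 0.90 (SE 0.08), and for GOT1 -0.55 and -0.63 (SE 0.10). A positive value here is a mixture whose fall was smaller than the fall of its components added. AMPA was dosed at 34 µM and glyphosate at 5.6 µM, so their responses are given side by side with no test: for ASS1 -0.95 and -1.10, for MAT1A -1.02 and -1.03, and for PCK2 -1.03 and -1.06.

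Beyond the members, 97 other genes of amino acid, one-carbon and related pathways were looked for, of which 94 were listed and 85 were tested. They were called lower in 38 to 46 cases per exposure and higher in 11 to 13, where 22.6 to 25.1% and 25 to 28% of all genes were. In all 5 exposures 32 were lower, 27 of them also against each set, and 10 were higher, 7 of them against each set (15.4%, 10.3%, 18.2% and 13.3% of all genes in that order). Those named had the smallest p among genes called alike in all 5. IVD, of leucine breakdown, fell from 11.2 to 12.1 FPKM unexposed to 6.00 to 7.14 exposed, and ALDH6A1, of valine breakdown, from 11.9 to 14.5 to 4.86 to 6.74. DHTKD1, of lysine breakdown, had log2 differences of -0.86 to -0.74. AMD1, of polyamine synthesis (0.60 to 0.68), the creatine kinase CKB (1.03 to 1.58), the prolyl hydroxylase subunit P4HA1 (1.03 to 1.19) and the kynurenine aminotransferase KYAT1 (0.66 to 0.95) rose.

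Of 15 regulators tested, 11 were lower and 2 higher in all 5 exposures and against each unexposed set, where 10.3% and 13.3% of all genes were. HNF4A, a nuclear receptor that sets hepatocyte identity, was at 43.1 to 45.6 FPKM unexposed and 23.9 to 28.4 exposed. CEBPA, a liver-enriched bZIP factor, was at 29.8 to 39.7 and 13.6 to 17.8, and PPARA, the fatty-acid-sensing receptor, at 4.88 to 5.86 and 2.55 to 3.15. FOXA2 rose from 14.0 to 16.4 FPKM unexposed to 21.4 to 25.5 exposed, and NR3C1, the glucocorticoid receptor, from 4.80 to 5.94 to 6.81 to 8.02. Of the 8 hepatocyte markers 6 were higher in all 5 exposures (18.2% of all genes), among them SERPINA1 (log2 0.36 to 0.59) and APOA1 (0.57 to 0.84), and APOB was lower (-0.56 to -0.26). In whole-culture RNA, fewer cells of a kind and less RNA per cell cannot be told apart.

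The remaining members listed but not tested were low. HAL, which starts histidine breakdown, had 37 to 120 reads a library, at 0.396 to 0.448 FPKM in set 1 to 3, 0.907 to 1.16 in set 4 to 6 and 0.390 to 0.816 exposed. BCAT2, a branched-chain transaminase, had 23 to 74 reads, at 0.586 to 0.871 FPKM unexposed and 0.287 to 0.578 exposed. TDO2 had 0 to 5 reads, KMO 0 to 12, PRODH 0 to 12 and BCKDHA 0 to 9. At these depths no change could be read for those 4. An annotated gene on the same strand shares 63.8% of the exonic bases of BCKDHA. How shared reads were counted is not given in the sources used here, so its low count may not show its expression.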

How the data were processed

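Total RNA of 21 C3A libraries was sequenced. Reads were aligned with HISAT2 2.0.5 to GRCh38 and counted with featureCounts 1.5.0-p3, per the submitters' processing notes. The authors deposited FPKM in 6 tables, 1 per group; their scaling, the strand of counting and the choice of genes in each table are not given in the sources used here. Multiplied by gene length, 100% of FPKM values were whole steps of 1 read (within 0.1), which gave the depth of 15202557 to 24352443 reads. The library size that the FPKM imply was 1.029 to 1.082 times the recovered reads in the unexposed libraries. In the exposed libraries it was 0.942 to 1.009 times, so the FPKM were not scaled to these reads themselves. Gene bounds and lengths of all 46 listed members equal those of GENCODE 29.

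Genes in all 6 tables with at least 1 FPKM in 3 or more libraries (13405) were fitted with limma 3.58.1 (R 4.3.3) on log2(FPKM + 1), with group means over all 21 libraries, an intensity trend and Benjamini-Hochberg adjustment within each comparison; a call is an adjusted p under 0.05. The model was tested on simulated data. The members, the unexposed sets and the other gene lists were chosen with earlier results of these data known. Members called in any exposure with a log2 difference of at least 0.5 are given in every library; of the other lists, up to 4 pathway genes and 3 regulators each way with the smallest p among those called alike in all 5. The values of 1 gene that this rule names are not reported here. Alternatives were median-of-ratios scaling, TPM, a pseudocount of 0.1, every gene unfiltered, the compared groups alone, voom on recovered reads, a replicate block, each unexposed set alone, AMPA with 2,4-D without replicates 1 and 3, and each library left out. Same-numbered exposed libraries did not deviate together (30 pairs, r -0.0608 to 0.0884), so the numbers were not used as pairs.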

Additional observations from a re-analysis of the deposited data

Results flagged for a closer look

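HPD in unexposed replicate 3 read 183 FPKM, the lowest of 6 unexposed libraries whose others lay between 201.6 and 209 FPKM, a gap large for the group's range. It was the 1 such value among 38 members tested this way in the unexposed libraries. The rule picks out about 1 in 20 groups by chance where all 6 values come from the same normal distribution. That rate need not hold here, since the 2 unexposed sets did not overlap for 24 of the 38 members. Interactions, the difference of a mixture from the sum of its components, were called for 20 members with glyphosate and 2,4-D and for 20 with AMPA and 2,4-D, against 33.6% and 36.7% of all genes.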

How the results depend on the processing

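Counts of members called lower stayed within 1.5 times their value under every alternative run. Leaving out 1 library gave 18 to 20 lower for glyphosate, 18 to 20 for AMPA, 17 to 20 for 2,4-D, 13 to 21 for glyphosate with 2,4-D and 15 to 20 for AMPA with 2,4-D; higher counts were 4 to 6, 6 to 7, 4 to 6, 4 to 6 and 4 to 6, AMPA with 2,4-D against AMPA gave 0 to 1, the other mixture pairs 0, and the interactions 17 to 22 and 15 to 20. Counts called higher moved more: TPM gave 3 for glyphosate, 3 for AMPA and 3 for AMPA with 2,4-D, the compared groups alone gave 3, 4 and 2, voom gave 4 for AMPA, and AMPA with 2,4-D without replicates 1 and 3, which leaves 1 library whose spread is taken from the other groups, gave 2. Without unexposed replicates 4 to 6 the higher counts were 8 for 2,4-D and 10 for glyphosate with 2,4-D. The replicate block, which the shared numbers do not justify and which uses unexposed replicates 1 to 3 only, gave the same 8 and 10, and 2 members for AMPA with 2,4-D against AMPA, where voom gave 1. The cause of these moves was not tested.

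Among values past the threshold in the alternative or against all unexposed libraries, signs turned for the members below. Without unexposed replicates 1 to 3, TAT became -0.24 for glyphosate, -0.29 for AMPA, -0.31 for glyphosate with 2,4-D and -0.21 for AMPA with 2,4-D; KYNU became 0.11, 0.22, 0.25, 0.15 and 0.34 for glyphosate, AMPA, 2,4-D and the mixtures with glyphosate and with AMPA; for glyphosate with 2,4-D, GLUD1 became -0.17 and AGXT -0.53; and AHCY became -0.085 for AMPA with 2,4-D. Without unexposed replicates 4 to 6, and likewise with the replicate block, AGXT became 0.51 for glyphosate, 0.59 for AMPA, 0.61 for 2,4-D and 0.43 for AMPA with 2,4-D, and GLUD1 0.14 for AMPA and 0.12 for AMPA with 2,4-D. FAH became -0.16 for AMPA on the TPM scale and -0.14 with voom. Of the 12 members lower and 2 higher against each set, the 1 call lost was NAGS for AMPA with 2,4-D without its replicates 1 and 3 (adjusted p 0.0817). Of 190 member values, 0 changed call with median-of-ratios scaling, 1 with the other pseudocount (gained) and 5 unfiltered (lost). With the sign kept, 12 lost and 21 gained a call with TPM, and 8 lost and 22 gained one with voom. The FAH value for AMPA, whose sign turned, was a further gain with TPM and with voom. With the compared groups alone 28 lost and 1 gained a call. The factors of median-of-ratios scaling were 1.002 to 1.012 over the libraries. That scaling thus left the values nearly as they were, and its count of 0 is no test of the scaling. For GNMT, PCK1, BHMT, HAL and BCAT2, the most reads in a library were 87, 282, 184, 120 and 74, which limits the precision.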
